A study of Mus musculus with 12 samples.

Results

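The genes described here encode the proteins of the cytosolic ribosome, measured in MIN6, an insulin-secreting cell line from a mouse insulinoma that stands in for beta cells. They were chosen by symbol: every gene with a probe set annotated to 1 symbol only, where that symbol begins with Rpl or Rps and a number (an added a, x, y or l allowed), or is Rplp0, Rplp1, Rplp2 or Rpsa, with pseudogene symbols left out. This gave 61 of the 19938 genes on the arrays: 35 of the large subunit, 23 of the small subunit and 3 of the stalk. Of these, 54 are the standard ribosomal proteins and 7 are paralogs (Rpl10l, Rpl7l1, Rpl3l, Rpl39l, Rpl32l, Rps4l and Rps27l), of which Rps4l is annotated as a transcribed pseudogene. A further 24 protein-coding genes whose symbols fit the rule were not analysed here. Of these, 17 are named only on probe sets shared with another symbol, Rpl11, Rpl3 and Rps27 among them.

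Ribosomal proteins assemble with ribosomal RNA into the large and small subunits, and the cell makes them in nearly equal amounts. Their mRNAs begin with a run of pyrimidines, the 5′ terminal oligopyrimidine (TOP) tract, through which mTORC1, a kinase complex that responds to nutrients and growth factors, sets how well they are translated. When assembly fails, free Rpl5 and some other members bind Mdm2, the ubiquitin ligase that holds p53 down.

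The sequence around the annotated transcription start is shown for 8 genes on which the results below turn, with the longest pyrimidine run in capitals. Each is 30 bases long, 15 on each side of the start, read 5′ to 3′ on the gene's strand from RefSeq (build GRCm38.p6). Where several starts are listed, the one with the longest run is given. The run of Rpl13 and that of Rpl5 begin at the first base shown. In Rplp2, Rps6 and Rpl7a the run crosses the annotated start. In Rps27l, Rpl13, Rpl5, Rpl10a and Rpl7l1 it lies wholly before that start, so it is not part of the mRNA as annotated.
Rps27l, chr9:66946071-66946100, plus strand: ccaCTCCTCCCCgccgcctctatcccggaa
Rplp2, chr7:141447636-141447665, plus strand: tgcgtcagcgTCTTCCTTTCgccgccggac
Rps6, chr4:86857353-86857382, minus strand: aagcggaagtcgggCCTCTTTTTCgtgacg
Rpl7a, chr2:26910792-26910821, plus strand: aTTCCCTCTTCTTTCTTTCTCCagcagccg
Rpl13, chr8:123102335-123102364, plus strand: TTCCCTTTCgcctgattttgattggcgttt
Rpl5, chr5:107900513-107900542, plus strand: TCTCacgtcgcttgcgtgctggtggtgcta
Rpl10a, chr17:28328456-28328485, plus strand: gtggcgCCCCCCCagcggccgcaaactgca
Rpl7l1, chr17:46782642-46782671, minus strand: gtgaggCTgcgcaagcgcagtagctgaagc

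RefSeq promoters were matched for 49 of the 61 genes, with 58 starts, since 8 genes have several. A pyrimidine run of at least 8 bases lay within 15 bases of the start in 18 of the 58, or 31.03%, against 12.0% of all 32851 promoters. In the window of 250 bases before to 50 after the start, read on both strands, CCGGAAG, the core of ETS-family sites, occurred in 34.48% of these promoters and in 8.86% of all. AANATGGCG, the core of YY1 sites, occurred in 6.9% of these promoters and in 2.38% of all, and CACGTG, the E-box bound by Myc, in 12.07% and in 7.15%. A single promoter, counted under each motif, held both CCGGAAG and AANATGGCG. These matches describe the letters in the window.

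The cells received siRNA against Hes3 or a scrambled control, both at 2 µM, after maintenance in medium with 15% fetal calf serum, and were collected 12 to 24 hours later. Hes3 is a transcription factor of the Hes/Hey family. Of the 12 arrays, 4 carry Hes3 siRNA in DC (serum-free medium, 5% oxygen; numbered 1, 2, 5 and 7), 4 scrambled siRNA in DC, 2 Hes3 siRNA in CC (medium with serum, 20% oxygen) and 2 scrambled siRNA in CC. Serum and oxygen change together between DC and CC and cannot be told apart. The labels describe duplicate or quadruplicate samples of 1 experiment, so p-values measure the spread between these samples, which may be technical.

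The labels of the siRNA groups were checked on Hes3 itself. Its log2 signal averaged 7.34 ± 0.06 in DC with Hes3 siRNA and 7.19 ± 0.06 in DC with scrambled siRNA (SD, n = 4 each), and 7.22 ± 0.01 in CC with Hes3 siRNA and 7.02 ± 0.29 in CC with scrambled siRNA (SD, n = 2 each). The siRNA did not show as a lower Hes3 signal in either condition, and the groups are named by their labels throughout. Hes3 is dim: Rpl10l, with a similar mean signal of 7.31, stands at percentile 31.6 of all genes. The dimmest 25% of all genes had a median difference of 0.15 in DC with Hes3 siRNA against scrambled siRNA. The check therefore cannot decide whether Hes3 RNA fell. The mean signal of 12 beta cell markers was 11.77 to 11.92 in DC with Hes3 siRNA and 11.93 to 11.98 in DC with scrambled siRNA. It was 11.887 to 11.890 in CC with Hes3 siRNA and 11.88 to 11.91 in CC with scrambled siRNA. In DC, 4 of the 12 were called lower and 1 higher with Hes3 siRNA. Of all genes 18.3% were called lower and 28.9% higher there, and of the brightest 25%, 40.9% and 2.39%. The DC arrays with Hes3 siRNA had a narrower range of signals than all others: the SD over all genes was 1.5 to 1.58 on them, against 1.63 to 1.74 on the other 8. On these arrays all 6 fibroblast, all 5 acinar and all 3 duct markers measured were called higher than with scrambled siRNA in DC, a call that 28.9% of all genes and 36.9% of the dimmest 25% shared. The fibroblast markers averaged 8.07 to 8.33 with Hes3 siRNA and 7.82 to 7.92 with scrambled siRNA. The acinar markers averaged 7.46 to 7.70 with Hes3 siRNA and 7.21 to 7.38 with scrambled siRNA, and the duct markers 7.93 to 8.11 with Hes3 siRNA and 7.65 to 7.801 with scrambled siRNA. Whether these shifts have a part in the results below was not tested.

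In the deposited values, ribosomal protein mRNAs as a group tended to lower signals in DC than in CC, most so with Hes3 siRNA. The difference between siRNAs in this step was called in no gene when tested as an interaction in the main fit, as given below. Single arrays overlapped between groups. The median over the 61 genes of the deviation from each gene's own mean was −0.15, −0.05, −0.12 and −0.07 (log2) on DC arrays 1, 2, 5 and 7 with Hes3 siRNA. It was −0.02, −0.09, 0.02 and 0.04 on the 4 DC arrays with scrambled siRNA. It was 0.03 and 0.23 on CC arrays 1 and 2 with Hes3 siRNA, and −0.002 and 0.19 on CC arrays 1 and 2 with scrambled siRNA. All 4 DC arrays with Hes3 siRNA lay below both CC arrays with that siRNA. However, DC array 2 with scrambled siRNA lay below DC arrays 2 and 7 with Hes3 siRNA. CC array 1 with scrambled siRNA lay below DC arrays 3 and 4 with that siRNA. The 2 arrays of each CC group lay far apart: in both groups, array 2 was the high one. In bulk RNA of this kind, less RNA per cell and a changed mixture of cells cannot be told apart.

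**Figure D1:**
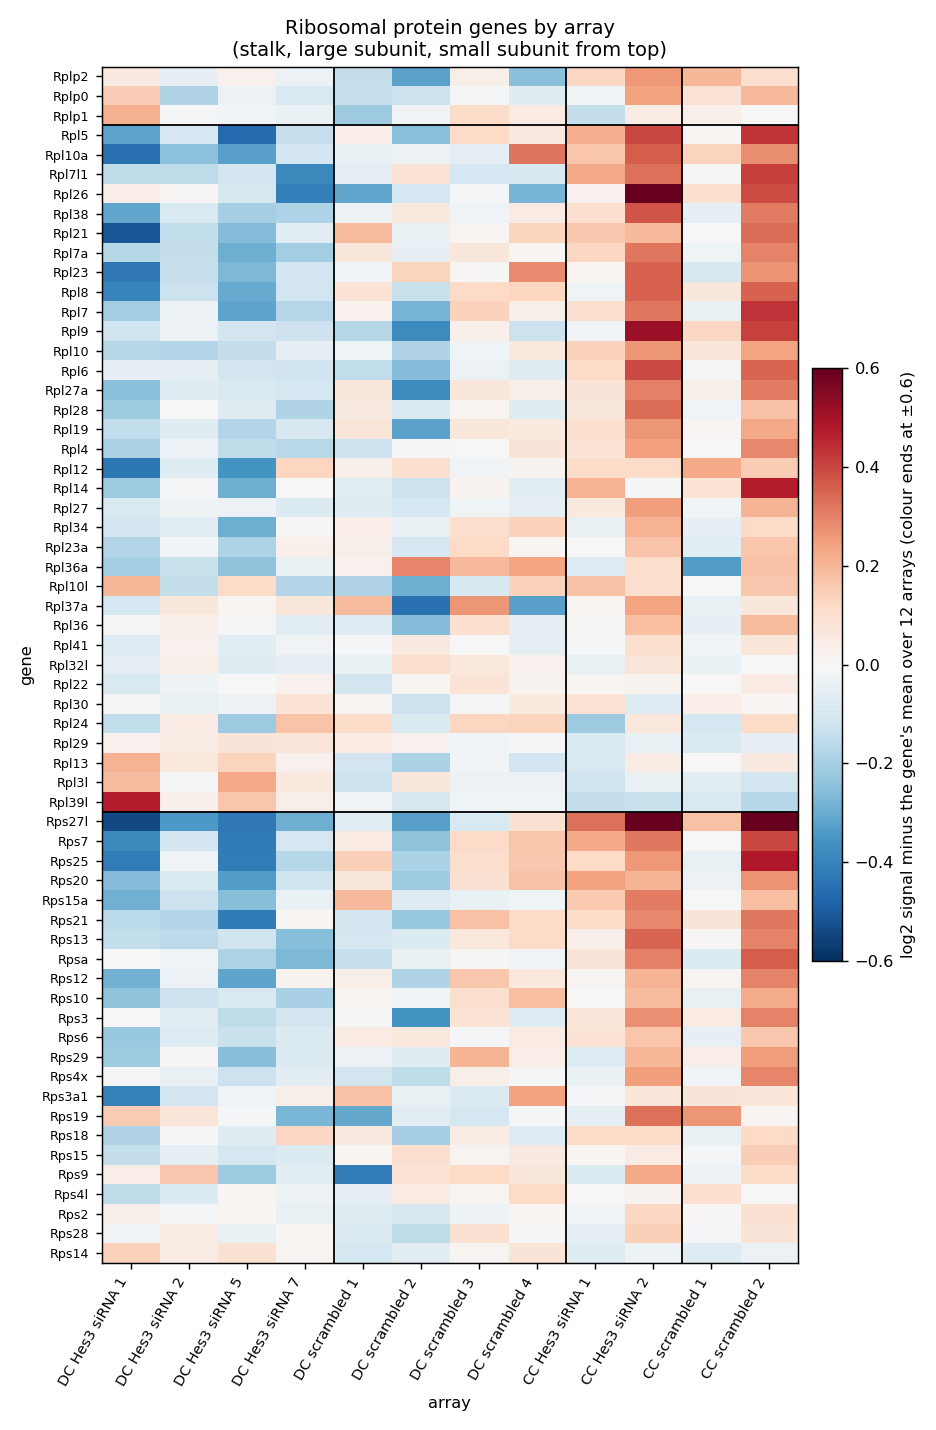
Colour gives the log2 signal of each of 61 ribosomal protein genes (rows; stalk, large and small subunit from the top, each ordered by the difference of DC from CC under Hes3 siRNA) on 12 arrays (columns), minus the gene's own mean over the arrays. Blue prevails on all 4 DC arrays with Hes3 siRNA (medians of −0.15 to −0.05) and on DC array 2 with scrambled siRNA (−0.09). Red is strongest on array 2 of both CC groups (0.23 and 0.19).

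With Hes3 siRNA, 28 of the 61 genes were called lower in DC than in CC and 1 was called higher (limma, adjusted p under 0.05). Over all genes 18.8% were called lower and 21.2% higher. The median log2 difference was −0.23 for ribosomal protein genes and 0.09 for all genes. A difference below 0 was found in 54 of the 61, against 37.1% of all genes. The direction went with brightness over the whole array. In the 25% of all genes with the highest mean signal, which hold 48 of the 61, 44.5% were called lower, 9.15% were called higher and the median was −0.19. Of these 48 ribosomal protein genes 26 were called lower and 0 higher, with a median of −0.26, which is nearer to that of the bright genes than to that of all genes. A difference below 0 was found in 89.6% of these 48 and in 72.4% of the bright genes. By subunit, 18 of 38 large-subunit and stalk genes were called lower and 1 higher, with a median of −0.22. In the small subunit 10 of 23 were called lower and 0 higher, with a median of −0.25.

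The changes were small, and their number rested on 1 array. Apart from Rps27l, no gene was called lower by 1.5-fold or more, a size that 5.17% of all genes and 13.1% of the brightest 25% reached. Without CC array 2 with Hes3 siRNA, 1 gene, Rps27l, was called lower in place of 28, and the median was −0.14. Without CC array 1 with Hes3 siRNA, 19 were called lower, with a median of −0.33. Without DC arrays 1 and 5 with Hes3 siRNA, 9 were called lower. After quantile normalization 3 were called lower and 5 higher, and after cyclic loess 8 lower and 6 higher, with medians of −0.08 in both.

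**Figure D2:**
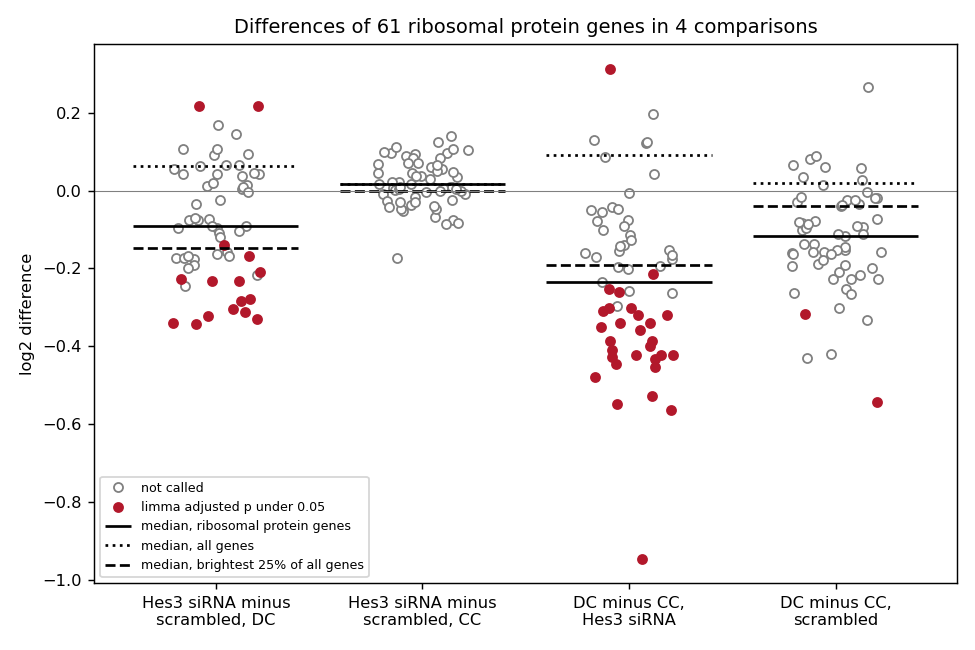
Each point is the log2 difference of 1 ribosomal protein gene in 1 of 4 comparisons, filled where limma's adjusted p was under 0.05; lines mark medians of these 61 genes, of all genes and of the brightest 25% of all genes. With Hes3 siRNA the 61 genes have a median of −0.23 in DC against CC, close to that of the brightest 25% (−0.19), and in CC the siRNA comparison has no filled point.

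Rps27l, a paralog of Rps27 that p53 induces, changed most. Its log2 signal was 9.20, 9.40, 9.32 and 9.45 in DC and 10.08 and 10.50 in CC with Hes3 siRNA, and 9.68, 9.42, 9.65 and 9.84 in DC and 9.92 and 10.46 in CC with scrambled siRNA. Every DC array lay below every CC array, with either siRNA. The difference of DC from CC was −0.95 ± 0.15 with Hes3 siRNA, 0.519-fold (SE, limma adjusted p = 0.000234), and −0.54 ± 0.15 with scrambled siRNA (limma adjusted p = 0.0278). With Hes3 siRNA the call held under each alternative run, those without 1 array included, at −0.73 without CC array 2 (limma adjusted p = 0.015). With scrambled siRNA it did not hold without CC array 2, where the difference was −0.27 (limma adjusted p = 0.528), nor without DC array 1, 2 or 3 (limma adjusted p = 0.053 to 0.0791). Mdm2, the ligase that ribosomal proteins bind and a p53 target, belongs to none of the lists and was added by name. It was lower in DC, with differences of −0.92 ± 0.13 with Hes3 siRNA and −0.87 ± 0.13 with scrambled siRNA (SE, limma adjusted p = 0.000105 and 0.000414). Over all genes 18.8% and 5.45% were called lower in these comparisons. Whether p53 has a part in the differences of Rps27l or Mdm2 was not tested.

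Among the large-subunit genes, Rpl5, which carries 5S ribosomal RNA into the subunit, had log2 signals of 10.20, 10.41, 10.05 and 10.38 in DC and 10.73 and 10.92 in CC with Hes3 siRNA. These groups did not overlap, and the difference was −0.56 ± 0.13 (SE, limma adjusted p = 0.00442). With scrambled siRNA the signals were 10.55, 10.26, 10.64 and 10.57 in DC and 10.53 and 10.94 in CC, which overlapped, with a difference of −0.23 ± 0.13 (SE, limma adjusted p = 0.374). All 5 probe sets of Rpl5 were lower in DC with Hes3 siRNA, by −0.56 to −0.63. The Rpl5 call was lost without CC array 2 with Hes3 siRNA (−0.47, limma adjusted p = 0.0782), and it held after quantile normalization (−0.33, limma adjusted p = 0.0345).

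Rpl10a, a protein of the L1 stalk, had log2 signals of 11.19, 11.39, 11.31 and 11.53 in DC with Hes3 siRNA, 11.60, 11.61, 11.58 and 11.96 in DC with scrambled siRNA, 11.81 and 12.00 in CC with Hes3 siRNA, and 11.78 and 11.92 in CC with scrambled siRNA. The DC arrays with Hes3 siRNA lay below all others. Their difference from CC with Hes3 siRNA was −0.55 ± 0.11 (SE, limma adjusted p = 0.0022), and its 4 probe sets gave −0.48 to −0.55. The Rpl10a call was lost after quantile normalization (−0.27, limma adjusted p = 0.056) and without CC array 2 with Hes3 siRNA (−0.45, limma adjusted p = 0.0568).

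Other large-subunit genes called lower in DC with Hes3 siRNA without overlap were Rpl7l1 (−0.48), a paralog of Rpl7, Rpl38 (−0.43), which is needed for normal patterning of the mouse skeleton, Rpl21 (−0.43) and Rpl7a (−0.42). Rpl7 fell by 0.39, while Rpl10, on the X chromosome, fell by 0.34. Rpl10l, the copy of Rpl10 that serves in the testis, had a difference of −0.14 ± 0.12 that was not called (SE, limma adjusted p = 0.338). Of 61 genes, 30 were lower and 4 higher in DC with Hes3 siRNA with no overlap of arrays, against 23.4% lower and 38.4% higher over all genes. Of the 4985 genes in the brightest 25%, 2608 were lower and 661 higher without overlap. Of the 48 ribosomal protein genes among these, 27 were lower and 2 higher, a share lower that is close to that of the bright genes.

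The 3 stalk genes encode the proteins that recruit elongation factors to the large subunit. Rplp2 had log2 signals of 8.66, 8.48, 8.84 and 8.55 in DC and 9.005 and 8.898 in CC with scrambled siRNA, which did not overlap. The difference was −0.32 ± 0.09 (SE, limma adjusted p = 0.0381), and it was −0.19 ± 0.09 with Hes3 siRNA (SE, limma adjusted p = 0.0923). The call with scrambled siRNA was lost without array 1 or array 2 of CC (limma adjusted p = 0.152 and 0.1), and without DC array 1, 2 or 4. Rplp0 averaged 12.34 ± 0.14 in DC and 12.50 ± 0.18 in CC with Hes3 siRNA (SD, n = 4 and n = 2), and was not called. Rplp1 differed by 0.09 ± 0.10 on the probe set used (SE, limma adjusted p = 0.465), while its other probe set gave −0.30.

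In the small subunit, Rps7, another Mdm2-binding protein, had log2 signals of 10.24, 10.51, 10.21 and 10.53 in DC and 10.86 and 10.95 in CC with Hes3 siRNA. The groups did not overlap and the difference was −0.53 ± 0.13 (SE, limma adjusted p = 0.00678), which was lost without CC array 2 (limma adjusted p = 0.0788). Rps25 fell by 0.45 and Rps20 by 0.42, also with no overlap. Rps6, the substrate of the S6 kinases downstream of mTORC1, averaged 12.89 ± 0.07 in DC and 13.15 ± 0.06 in CC with Hes3 siRNA (SD, n = 4 and n = 2), a difference of −0.25 ± 0.08 (SE, limma adjusted p = 0.0178) that became 0.03 after cyclic loess and was not called without either CC array (limma adjusted p = 0.0569 and 0.161). Rpsa, also known as a laminin receptor, fell by 0.31 on the probe set used, and its other 4 probe sets gave −0.18 to 0.12. Rps19, the gene most often mutated in human Diamond-Blackfan anaemia, averaged 9.81 ± 0.19 in DC and 9.96 ± 0.27 in CC and was not called (limma adjusted p = 0.319).

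**Figure D3:**
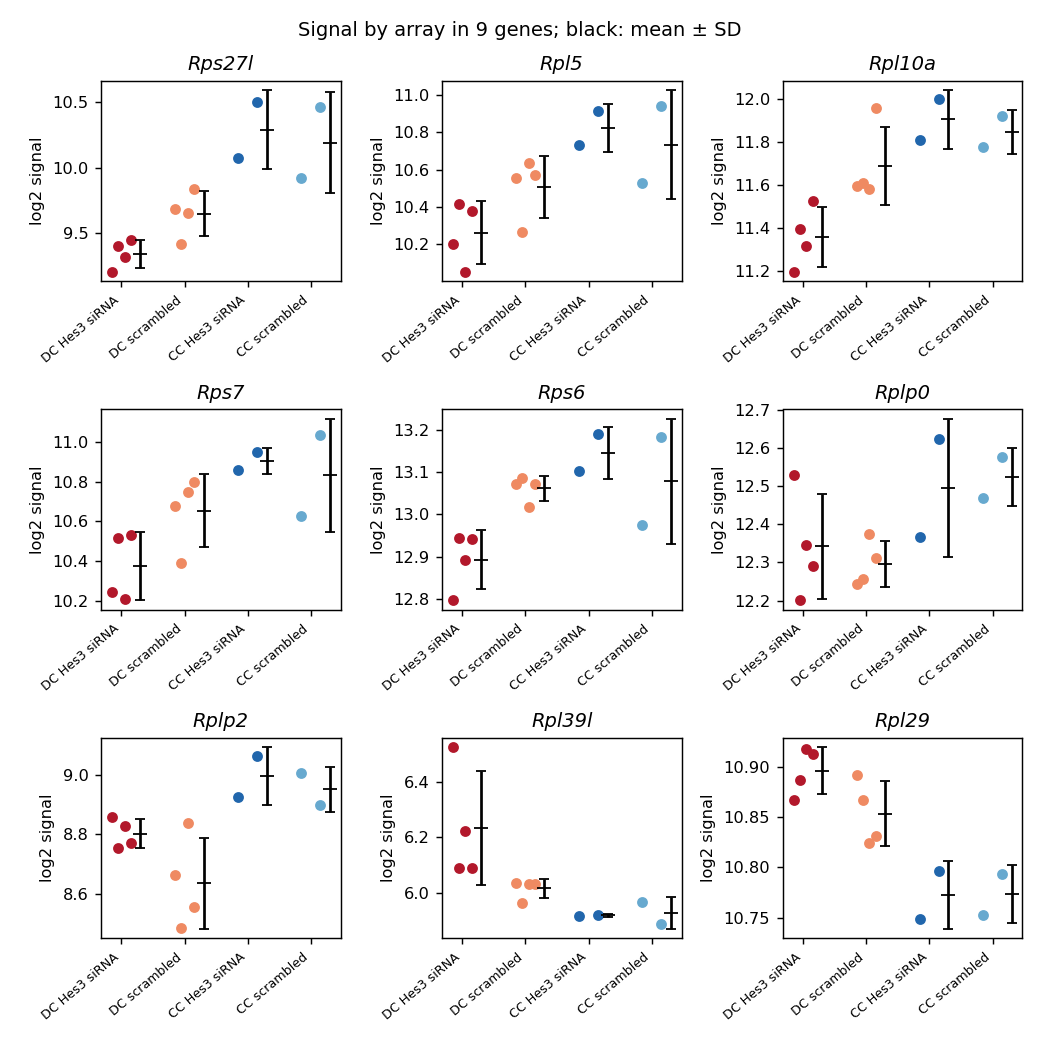
Points are the log2 signals of 9 genes on each array of the 4 groups, with the group mean ± SD beside them in black (n = 4 in DC, n = 2 in CC); each panel has its own axis. Rps27l is below every CC array on every DC array, Rpl10a is lowest in DC with Hes3 siRNA (11.19 to 11.53), and Rpl39l and Rpl29 are higher in DC than in CC with Hes3 siRNA.

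With scrambled siRNA, 2 of the 61 genes were called lower in DC than in CC, Rps27l and Rplp2, and 0 were called higher (limma; 11 at an unadjusted p under 0.05). Over all genes 5.45% were called lower and 3.09% higher. The median difference was −0.12 for ribosomal protein genes, 0.02 for all genes and −0.04 for the brightest 25%. The direction was broad: 52 of the 61 genes had a difference below 0, against 43.7% of all genes and 57.7% of the brightest 25%. It too rested on 1 array, since the median was −0.01 without CC array 2 with scrambled siRNA and −0.23 without CC array 1. The count of genes called lower was 7 without CC array 1, 0 without CC array 2, DC array 1 or DC array 2, and 1 without DC array 4. Rpl9 came nearest to a call among the others (−0.43 ± 0.13, SE, limma adjusted p = 0.0519; named after its value was seen). The largest positive differences by p were those of Rpl36a (0.27), Rpl29 (0.08) and Rpl39l (0.09), none of which was called. The comparisons of DC with CC share no array, and their difference was tested as an interaction: 0 of 61 genes were called in limma, with 9 at an unadjusted p under 0.05, and 0% of all genes were called. The median interaction was −0.10, and 43 of the 61 were below 0, against 39.6% of all genes. In the brightest 25% of all genes the median interaction was −0.15, and 75.8% were below 0. Of the 48 ribosomal protein genes among these 75% were below 0, with a median of −0.12. The smallest interaction p was that of Rpl36a (−0.44 ± 0.17, SE, limma adjusted p = 0.226).

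Within DC, 14 of the 61 genes were called lower with Hes3 siRNA than with scrambled siRNA and 2 were called higher (limma), against 18.3% lower and 28.9% higher over all genes. This comparison shares its Hes3 siRNA arrays with that of DC against CC, so the 2 are not independent. The median difference was −0.09 for ribosomal protein genes, 0.06 for all genes and −0.15 for the brightest 25%, where 40.9% of genes were called lower and 2.39% higher. Of the 48 ribosomal protein genes among them 14, or 29.2%, were called lower and 1 higher. A difference below 0 was found in 39 of the 61 genes, against 40.5% of all genes. In the brightest 25% that share was 83.3%, and among the 48 ribosomal protein genes in it 64.6%, which is lower. By subunit, 7 of 23 small-subunit genes were called lower, with a median of −0.17, and 7 of 38 large-subunit and stalk genes, with a median of −0.08. The family's direction depended on the scaling: its median was 0.00 after quantile normalization and 0.03 after cyclic loess, and in both 9 genes were called higher and 2 lower.

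The genes called lower in DC with Hes3 siRNA without overlap of arrays were led by Rpl36a (−0.34 ± 0.10), Rpl23 (−0.34 ± 0.10), Rpl10a (−0.33 ± 0.09) and Rpl21 (−0.32 ± 0.09; SE; limma adjusted p between 0.0117 and 0.0158). The 9 probe sets of Rpl21 gave −0.32 to 0.006, and not all of them were called. Rpl23 is a further Mdm2-binding protein. Rps10 fell by 0.23, Rpl7a by 0.23, Rpl38 by 0.21 and Rps15 by 0.14. Rps6 had log2 signals of 12.80, 12.94, 12.89 and 12.94 with Hes3 siRNA and 13.07, 13.09, 13.02 and 13.07 with scrambled siRNA. All 4 Rps6 signals with Hes3 siRNA lay below the 4 with scrambled siRNA, and the difference was −0.17 ± 0.06 (SE, limma adjusted p = 0.0361). Over the 61 genes, 11 were lower and 2 higher with no overlap, against 17% and 23.9% of all genes. Of the 4985 genes in the brightest 25%, 1941 were lower and 117 higher with no overlap. Of the 48 ribosomal protein genes among these, 11 were lower and 1 higher, so they were lower less often than bright genes in general. The count of genes called lower was 4 without Hes3 siRNA array 1, scrambled siRNA array 1 or scrambled siRNA array 4, and 5 without Hes3 siRNA array 5 or scrambled siRNA array 3. Without Hes3 siRNA arrays 1 and 5 together 0 were called in either direction. The call of Rps6 was lost without Hes3 siRNA array 1 or 5 or any 1 of the scrambled siRNA arrays (limma adjusted p = 0.0524 to 0.0991).

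The 2 genes called higher were Rpl13 and Rpl39l. Rpl13, a large-subunit protein, had log2 signals of 10.03, 9.89, 9.96 and 9.85 with Hes3 siRNA and 9.71, 9.63, 9.80 and 9.71 with scrambled siRNA in DC. These did not overlap and differed by 0.22 ± 0.06 (SE, limma adjusted p = 0.0134). The other 8 probe sets of Rpl13 gave −0.04 to 0.09, and the mean over all 9 gave 0.04 (limma adjusted p = 0.592), so the call rested on the brightest probe set. The call on that probe set held without each array in turn. Rpl39l, a paralog of Rpl39 best known from the testis, had log2 signals of 6.53, 6.09, 6.22 and 6.09 with Hes3 siRNA and 6.03, 5.96, 6.03 and 6.03 with scrambled siRNA in DC, and 5.92 and 5.92 in CC with Hes3 siRNA. The difference was 0.22 ± 0.08 from scrambled siRNA in DC and 0.31 ± 0.10 from CC (SE, limma adjusted p = 0.0411 and 0.0242). Rpl39l is the dimmest of the 61 genes. Over the 25% of all genes with the lowest signal the median difference in DC was 0.15, and 36.9% were called higher. After quantile normalization neither Rpl39l difference was called (limma adjusted p = 0.52 and 0.166). The difference from scrambled siRNA was not called without Hes3 siRNA array 1 or 5 or any 1 of the scrambled siRNA arrays, and that from CC not without either CC array.

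In CC, 0 of the 61 genes were called in either direction with Hes3 siRNA against scrambled siRNA (limma), with 0 at an unadjusted p under 0.05, and 0% of all genes were called. The median difference was 0.02 for ribosomal protein genes and 0.02 for all genes. A difference below 0 was found in 20 of the 61, against 42.1% of all genes, and 2 were lower and 0 higher with no overlap of arrays, against 13.1% and 13.9%. The largest positive differences by p were those of Rps15a (0.14 ± 0.11), Rpl28 (0.13 ± 0.11) and Rpl38 (0.11 ± 0.12), and the largest negative ones those of Rpl14 (−0.17 ± 0.13), Rps29 (−0.09 ± 0.12) and Rpl24 (−0.08 ± 0.13; SE, n = 2 arrays a group). The number of arrays limits this comparison: Rps27l had an SD of 0.39 over the 2 CC arrays with scrambled siRNA.

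Some members hardly differed. In DC against CC with Hes3 siRNA, Rpl30 differed by −0.0049 ± 0.0751, Rpl22 by −0.04 ± 0.07, Rps28 by −0.05 ± 0.08, Rps2 by −0.05 ± 0.07 and Rpl41 by −0.08 ± 0.07 (SE; chosen after their values were seen). Rpl29 had log2 signals of 10.87, 10.89, 10.92 and 10.91 in DC and 10.75 and 10.80 in CC with Hes3 siRNA, with no overlap, and the difference of 0.12 ± 0.06 was not called (SE, limma adjusted p = 0.119). Among the paralogs Rpl3l, found mainly in muscle, had a difference of 0.20 ± 0.08 that was not called (SE, limma adjusted p = 0.0591), and Rpl32l and Rps4l differed by −0.05 and −0.08. Over the 7 paralogs 2 were called lower and 1 higher. Of the 17 genes with a pyrimidine run of at least 8 bases near the start 10 were called lower, with a median of −0.26. Of the 32 genes without one 14 were called lower, with a median of −0.24. In this comparison 18.8% of all genes and 44.5% of the brightest 25% were called lower. Runs on either side of the annotated start were counted, so those of Rps27l and Rpl13, which lie wholly before it, are included. The counts therefore do not compare mRNAs with and without a TOP tract.

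Several probe sets of a gene gave a second reading of the same arrays, and they are not independent. Some probe sets of Rpl23a had identical values, and genes with many probe sets weigh more in the counts that follow. The 61 genes have 217 probe sets annotated to them alone, 22 genes having 1 and Rps12 having 14. Tested one by one, 101 of the 217 were called lower and 1 higher in DC against CC with Hes3 siRNA (limma), against 18.8% lower and 20.4% higher over all 21789 probe sets of that fit. Of the 182 that are among the brightest 25% of probe sets 87 were called lower, against 43.8% of that 25%. With scrambled siRNA 3 of the 217 were called lower and 0 higher in DC against CC, against 5.07% and 3.12% of all probe sets, and 2 of the 182 bright ones were called lower, against 10.9%. In DC, 45 of the 217 were called lower and 4 higher with Hes3 siRNA against scrambled siRNA, against 18.5% and 27.5% of all probe sets, and 38 of the 182 bright ones were called lower, against 39.9%. Of the 39 genes with several probe sets, 31 had differences of 1 sign in DC against CC with Hes3 siRNA and 8 of both signs, and 0 genes had probe sets called in opposite directions. The widest spread was that of Rps21, whose probe sets gave −0.39 and 0.11. Ribosomal protein genes have many processed pseudogenes, and which copies a probe set reads was not tested.

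**Figure D4:**
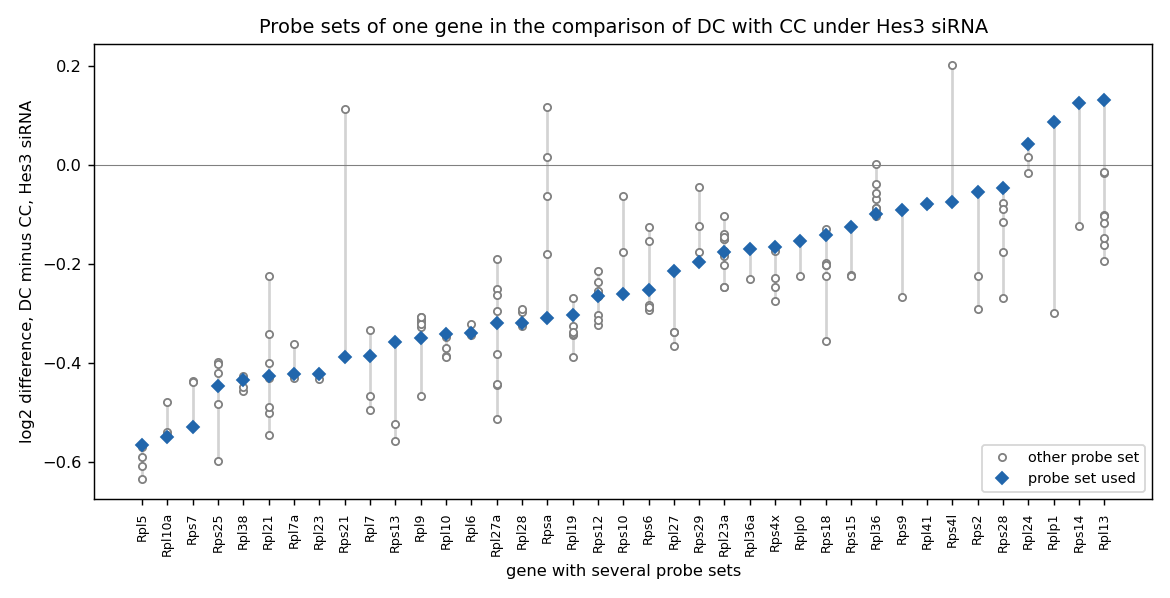
Points are the log2 differences of DC from CC with Hes3 siRNA for each probe set of the 39 genes that have several; diamonds mark the probe set used for the gene. All 5 probe sets of Rpl5 lie between −0.56 and −0.63, while those of Rps21 lie on both sides of 0.

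Other genes of the translation machinery were counted in the same fit, beside the percentages for all genes given above. In the brightest 25% of all genes, 44.5% were called lower and 9.15% higher in DC against CC with Hes3 siRNA. The lists below were not matched to other genes by brightness. Of 19 translation factors and other genes with TOP mRNAs, 12 were called lower and 0 higher in DC against CC with Hes3 siRNA, with a median of −0.38. They included the initiation factor subunits Eif3e (−0.72), Eif3f (−0.55) and Eif3l (−0.49) and the elongation factor subunit Eef1b2 (−0.63). The elongation factors Eef1a1 (−0.12) and Eef2 (0.02) were not called. Of 15 initiation factors and regulators of mTORC1, 8 were called lower, among them Rheb (−1.04), the GTPase that activates mTORC1, and the cap-binding protein Eif4e (−0.54). The 2 called higher were Mtor (0.25), the kinase itself, and Eef2k (0.28), which inhibits elongation. The shares called lower were 63.2% of the 19 and 53.3% of the 15.

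Of 52 genes for ribosome assembly and RNA polymerase I, 17 were called lower and 2 higher in DC against CC with Hes3 siRNA, with a median of −0.18. Imp3 (−0.76) and Utp4 (−0.58), which process the small-subunit RNA, Dkc1 (−0.74), which modifies it, and Brix1 (−0.62), which acts on the large subunit, were lower. The AAA ATPase Mdn1 (0.33) was higher, and Myc, a regulator of ribosome production, was not called (0.13, limma adjusted p = 0.242). Of 77 genes for proteins of the mitochondrial ribosome 35 were called lower and 1 higher, with a median of −0.24, led by Mrpl34 (−0.69) and Mrpl50 (−0.63). The shares called lower were 32.7% of the 52 and 45.5% of the 77. Neither was clearly above the 44.5% of the brightest 25% of all genes. With scrambled siRNA the counts in DC against CC were 1 lower of 19, which was Eef1b2 (−0.44), 1 higher of 15, which was Mtor (0.32), 4 lower and 1 higher of 52, and 2 lower and 1 higher of 77.

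Within DC, with Hes3 siRNA against scrambled siRNA, 8 of the 19 TOP genes were called lower and 0 higher, with a median of −0.21, led by Eif3f (−0.65) and Eif3e (−0.52). Of the 15 initiation factors and mTORC1 regulators 7 were called lower and 0 higher. They included Eif5a (−0.46), Rheb (−0.43) and Mtor (−0.22). Of the 52 assembly genes 17 were called lower and 0 higher, led by Dkc1 (−0.54) and Imp3 (−0.51). Of the 77 mitochondrial ribosomal protein genes 19 were called lower and 4 higher, with Mrps21 (−0.57) lowest and Mrpl12 (0.33) highest. The shares called lower in DC were 42.1% of the 19, 46.7% of the 15, 32.7% of the 52 and 24.7% of the 77. In the brightest 25% of all genes that share was 40.9%. In CC 0 genes of these lists were called in limma, with 1 of the 19, 0 of the 15, 0 of the 52 and 3 of the 77 at an unadjusted p under 0.05.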

How the data were processed

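The values were log2 signals per probe set of Affymetrix Mouse Gene 1.0 ST arrays as the authors deposited them (3.94 to 14.4). The log2 unit was read from the values. Background correction, summarization and normalization were not given in the sources used here. The number of arrays limits the precision. Per the labels, 50000 cells per well were plated and 250 ng of RNA was labelled per array. Of 35556 probe sets, 21789 have 1 symbol in the platform annotation of 2016. For each gene the brightest of its probe sets, by mean signal over the 12 arrays, was used.

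Differences were fitted with limma 3.58.1 in R 4.3.3 (lmFit, eBayes), 1 mean per group, for 5 contrasts. P-values are two-sided and Benjamini-Hochberg adjusted over all 19938 genes, and calls were made at 0.05 whatever the fold. The fit was tested on simulated data.

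Members, lists and tests were chosen with earlier results of these data known. Genes named are, in each comparison, called members without overlap of arrays (up to 10 each way), otherwise the 3 smallest p, and a fixed set with paralogs. From each related list, up to 4 called genes are named, and Mdm2 was added by name. The markers covered beta, alpha, delta and PP, acinar, duct, fibroblast, and macrophage and endothelial cells. In DC with Hes3 siRNA against scrambled siRNA, 1 higher and 4 lower of 12 beta, 1 higher of 3 alpha, 2 higher of 3 delta and PP, 3 higher of 3 duct, and 4 higher of 7 macrophage and endothelial markers were called.

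Alternatives were 3 normalizations, a filter on dim genes (under percentile 40), averaging the probe sets of a gene, another variance model, fits of the compared arrays alone, a replicate block, and leaving out arrays. Probe sets one by one and a 1.5-fold minimum were added after seeing the data.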

Additional observations from a re-analysis of the deposited data

Results flagged for a closer look

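Dixon's test at the 95% level was run in both DC groups on the 31 ribosomal protein genes that the naming rule chose and on the median deviation of all 61, 64 sets of 4 values in all, and marked 6 of them, where chance marks about 1 in 20. Rpl7l1 was low on DC Hes3 siRNA array 7, at 9.57, with the others at 9.80 or above. Rplp1 was high on DC Hes3 siRNA array 1, at 12.24, next to 12.01. Rpl10a was high on DC scrambled siRNA array 4, at 11.96, next to 11.61. DC scrambled siRNA array 2 was low for 3 genes: Rpl24 at 9.75, Rpl39l at 5.96 and Rps25 at 10.25.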

How the results depend on the processing

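Counts here are ribosomal protein genes called by limma. In DC, with Hes3 siRNA against scrambled siRNA (2 higher, 14 lower), quantile normalization and cyclic loess each gave 9 higher and 2 lower, and centring arrays on their median gave 0 and 23. Leaving out dim genes gave 1 higher. The compared arrays alone gave 1 higher, averaged probe sets 1 higher, and leaving out DC Hes3 siRNA arrays 1 and 5 gave 0 and 0. Leaving out each array gave 1 to 3 higher and 4 to 17 lower. In DC against CC with Hes3 siRNA (1 higher, 28 lower), quantile normalization gave 5 and 3, cyclic loess 6 and 8, and centring 0 higher. Leaving out dim genes gave 0 higher, the compared arrays alone 0 higher, and leaving out arrays 1 and 5 gave 0 and 9. Leaving out each array gave 0 to 2 higher and 1 to 28 lower. In DC against CC with scrambled siRNA (0 higher, 2 lower), quantile normalization and centring each gave 1 lower, and leaving out each array gave 0 to 1 higher and 0 to 7 lower. The interaction had 0 to 5 lower, with 5 only without CC scrambled siRNA array 2, and its median, −0.10, was 0.01 after quantile normalization and 0.01 after cyclic loess. The siRNA comparison in CC had 0 calls throughout.

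Over all genes, the split in DC with Hes3 siRNA against scrambled siRNA was 5769 higher and 3639 lower, which became 2387 and 2320 after quantile normalization, 1596 and 2515 after cyclic loess, and 3165 and 5173 after centring. In DC against CC with Hes3 siRNA it was 4231 and 3755, which became 2205 and 4385 after centring and 2249 and 2957 after cyclic loess. Of 36 calls of named genes, 5 held after quantile normalization, 8 after cyclic loess and 32 after centring. Signs turned for Rps15 in DC (1.9e-05 after quantile normalization, 0.026 after cyclic loess), and in DC against CC with Hes3 siRNA for Rps10 (0.00019 and 1.5e-05) and Rps6 (0.030 after cyclic loess). The cause was not tested.

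Replicate numbers were not shown to pair the arrays. Same-numbered arrays had correlations of −0.44 to 0.54, which cannot decide the pairing. Each CC group has 2 arrays, and numbers 1 and 2 gave the same correlation between the CC groups, 0.25. With the replicate number as a block, 0 were called in DC with Hes3 siRNA against scrambled siRNA, higher or lower, 14 lower and 1 higher in DC against CC with Hes3 siRNA, and 1 lower with scrambled siRNA. The crossed pairing of the CC arrays gave 0 calls. Arrays numbered 3, 4, 5 and 7, whose numbers occur in 1 group, add nothing to that fit.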
